A study of Mus musculus with 24 samples.

Results

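The integrated stress response is a shared route by which cells answer amino acid shortage, heme loss, viral RNA and misfolded protein. Kinases of the translation factor eIF2 slow general protein synthesis, and under those conditions the messenger RNA of the transcription factor ATF4 is translated more. ATF4 pairs with C/EBP proteins at composite promoter sites and switches on stress effectors together with genes that make, import and charge amino acids. Serine and one-carbon metabolism, which ATF4 controls, also supplies glutathione and methyl groups in activated macrophages. The 34 genes described here are a hand-made list of such genes, each matched by its exact symbol, out of 24537 genes in the expression tables. They were sorted by role into 6 transcription factors, 8 stress effectors, 13 amino acid synthesis and one-carbon genes, 6 amino acid transporters and 1 tRNA exporter. Pck2, the gene of a PEP carboxykinase, was placed with the synthesis genes, though its product makes no amino acid.

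The cells were bone marrow-derived macrophages of female C57BL/6J mice aged 8 weeks, grown in M-CSF, the cytokine that drives macrophage differentiation. They received vehicle (control), LPS, the bacterial outer membrane lipid sensed by TLR4, 4-OHE1 (4-hydroxyestrone, a catechol metabolite of the estrogen estrone), or LPS and 4-OHE1 together (LPS+4-OHE1), for 6 h or 24 h. Each of the 8 groups held 3 libraries, and the design lets each agent and the pair be compared at both times. LPS at 100 ng/mL and 4-OHE1 at 5 mM are the labelled doses, but the labels repeat these figures for the undiluted stocks, which leaves the amounts in the wells uncertain. The labels do not tie the replicates to separate animals or cultures, so each p-value reflects only how far these libraries spread, which may be technical. In bulk RNA, fewer cells of a type and less RNA per cell cannot be told apart.

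Depth was 8127155 to 13339193 reads per library, at which 1 read in a 2 kb transcript equals 0.0375 to 0.0615 FPKM (fragments per kilobase of transcript, scaled to library depth). All 8 macrophage markers were present, with a summed level of 4527 to 14820 FPKM in which Lyz2 weighed most. The T cell and erythroid markers stayed under 1 FPKM in every library. Of the neutrophil list only S100a8, which macrophages also express, and Camp passed 1 FPKM, and of the megakaryocyte list only Pf4, which reached 1264 FPKM in 24 h LPS libraries. Some markers of other lists also passed 1 FPKM. They were Col1a1, Col1a2 and Dcn of the fibroblast list (up to 2.64, 2.06 and 1.49 FPKM) and Cd79b of the B cell list (up to 1.71 FPKM). Ccr7 and Xcr1 of the dendritic cell list reached 6.17 and 3.26 FPKM, and Kit of the mast cell list 2.20 FPKM. The part of all these genes in the results was not tested. One library, 6 h LPS+4-OHE1 replicate 3, stood apart on the first principal component (score 4.27 against 19.4 and 18.3 for its group), and results that rest on it are given with and without it. Differences below are log2 differences of FPKM + 0.5 with their standard error, tested with limma over 11098 genes at 6 h and 11185 at 24 h (Benjamini-Hochberg adjusted p under 0.05). LPS shifted the whole table: the median gene was at -0.61 in LPS against control at 6 h and at -0.31 at 24 h, and at 0.02 in both after median-of-ratios scaling, which sets the median gene of each library equal. Counts are therefore given on the values as deposited and, where they differ, also after that scaling.

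Several of these genes share a promoter element, shown here because it is the composite site at which ATF4 and C/EBP factors bind. RefSeq promoter windows of 300 bases (GRCm38.p6) were found for 30 of the 34 genes. The core of the C/EBP-ATF response element, TGATGNAA searched on both strands, lay in 8 of these 30 genes (26.7%), against 4.51% of the 27025 genes with such a window. The core of the antioxidant response element, TGACNNNGC, the site of NRF2, lay in 10 of 30 (33.3%) against 14% of all genes, and only the Asns window held both cores, without overlap. The matches in Pycr1 and Vldlr belonged to genes too low to test, and those of the other 6 genes are printed 5′ to 3′ on the gene's strand, with the core in capitals. In all but Asns the core lies on the opposite strand, so the capitals are its reverse complement. All 6 genes rose with 4-OHE1 at 6 h, as did most of the list. For Chac1 (chr2:119350992-119351241, + strand), Nupr1 (chr7:126625471-126625720, - strand), Asns (chr6:7693210-7693459, - strand) and Pck2 (chr14:55540016-55540265, + strand) the 250 bases before the start site are shown. For Trib3 (chr2:152344028-152344057, - strand) and Slc1a4 (chr11:20332699-20332728, - strand), whose cores lie close to the start site, 30 bases are shown. A match is a string of letters and no measure of binding.
Chac1: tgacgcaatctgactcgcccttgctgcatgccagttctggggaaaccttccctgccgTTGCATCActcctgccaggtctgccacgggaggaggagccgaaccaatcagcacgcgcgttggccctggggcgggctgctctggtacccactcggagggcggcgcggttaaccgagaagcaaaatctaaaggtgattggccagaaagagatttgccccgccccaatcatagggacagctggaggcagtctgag
Nupr1: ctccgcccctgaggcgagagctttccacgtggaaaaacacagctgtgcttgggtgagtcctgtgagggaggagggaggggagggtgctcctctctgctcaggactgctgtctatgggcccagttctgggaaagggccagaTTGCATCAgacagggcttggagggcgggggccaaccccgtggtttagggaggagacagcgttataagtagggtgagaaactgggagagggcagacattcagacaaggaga
Asns: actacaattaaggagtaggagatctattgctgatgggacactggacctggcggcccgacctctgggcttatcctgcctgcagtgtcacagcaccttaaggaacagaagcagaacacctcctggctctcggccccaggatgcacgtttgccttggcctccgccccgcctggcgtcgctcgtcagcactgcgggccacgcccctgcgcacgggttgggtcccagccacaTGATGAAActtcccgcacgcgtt
Pck2: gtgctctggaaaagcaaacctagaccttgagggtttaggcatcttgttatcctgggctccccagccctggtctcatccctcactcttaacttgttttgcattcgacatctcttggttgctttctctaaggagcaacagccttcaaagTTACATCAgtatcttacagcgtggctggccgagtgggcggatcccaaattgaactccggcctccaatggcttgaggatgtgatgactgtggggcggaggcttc
Trib3: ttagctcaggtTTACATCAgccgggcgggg
Slc1a4: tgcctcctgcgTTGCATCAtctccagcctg

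A filter of 1 FPKM in at least 3 of the 12 libraries of a time passed 30 of the 34 genes at 6 h and 29 at 24 h. The secreted glycoprotein gene Stc2 reached at most 0.106 FPKM, the lipoprotein receptor gene Vldlr 0.219 FPKM, the proline synthesis gene Pycr1 0.581 FPKM and the transsulfuration gene Cbs 0.043 FPKM in any library, and none of them was tested. Cth, the other transsulfuration enzyme, which makes cysteine, passed at 6 h only, through the groups that received 4-OHE1. It read 0.084, 0 and 0 FPKM in control and 1.72, 2.27 and 1.12 FPKM in 4-OHE1 libraries, from 2 and 80 reads per group, so its difference of 2.03 ± 0.25 owes its entry to the filter.

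At 6 h, 4-OHE1 alone raised most of the list: 27 of the 30 genes tested were higher and 0 lower, against 20.9% higher and 44% lower of all genes tested (64.9% either way). The median difference was 1.52, against -0.21 for all genes. The order of the roles was stress effectors first (6 of 6 higher, median 3.04), then amino acid transporters (6 of 6, median 2.28), transcription factors (5 of 6, median 1.73) and amino acid synthesis genes (9 of 11, or 10 after scaling, median 0.75). Without Cth, whose entry the filter decided, 26 of 29 genes of the list were higher with a median of 1.46, and 8 of 10 synthesis genes with a median of 0.71. Cebpg (0.03 ± 0.11), Mthfd1l (0.03 ± 0.06) and Aldh18a1 (-0.13 ± 0.12) did not pass, and after scaling Mthfd1l did.

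Ddit3, which encodes the pro-apoptotic factor CHOP (chr10:127290793-127296288, mm10), read 14.6, 13.9 and 14.9 FPKM in 6 h control and 329.6, 367.0 and 323.9 FPKM in 6 h 4-OHE1 libraries. The groups lay far apart, and the difference was 4.51 ± 0.10 (limma, adjusted p = 8.6e-12). The gene overlaps the opposite-strand gene Mars by 68 bases, and the strand setting of the counting is not given in the sources used here. Atf4 itself (chr15:80255184-80257545, mm10) read 137.2, 124.5 and 142.7 FPKM in control and 506.4, 516.5 and 474.9 FPKM with 4-OHE1, without overlap, a rise of 1.89 ± 0.07 (adjusted p = 3e-10). Nupr1, a small stress-induced chromatin factor, went from 5.71, 6.12 and 6.71 FPKM to 46.3, 42.8 and 43.7 FPKM. Its rise was 2.75 ± 0.09, while Atf5, a close relative of ATF4, rose by 1.09 ± 0.07 and Cebpb, an inflammatory C/EBP factor, by 1.58 ± 0.17.

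The largest rise in the list belonged to a stress effector. Ppp1r15a, which encodes GADD34, the phosphatase subunit that reverses eIF2 phosphorylation (chr7:45522917-45526268, mm10), read 7.16, 7.46 and 8.08 FPKM in control and 269.5, 306.1 and 282 FPKM with 4-OHE1. That was a difference of 5.15 ± 0.08 (limma, adjusted p = 1.2e-12), and every treated library exceeded every control library many times over. Trib3, a pseudokinase that feeds back on ATF4, rose by 3.96 ± 0.12 from 6.68, 6.27 and 7.71 FPKM to 107.3, 122.1 and 112 FPKM. Sesn2, a leucine sensor that restrains mTORC1, rose by 3.27 ± 0.14, and Chac1, an enzyme that degrades glutathione, by 2.81 ± 0.11. Ddit4, an mTORC1 inhibitor also called REDD1, rose by 2.20 ± 0.20 and Eif4ebp1, the cap-binding repressor 4E-BP1, by 1.73 ± 0.12.

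**Figure D1:**
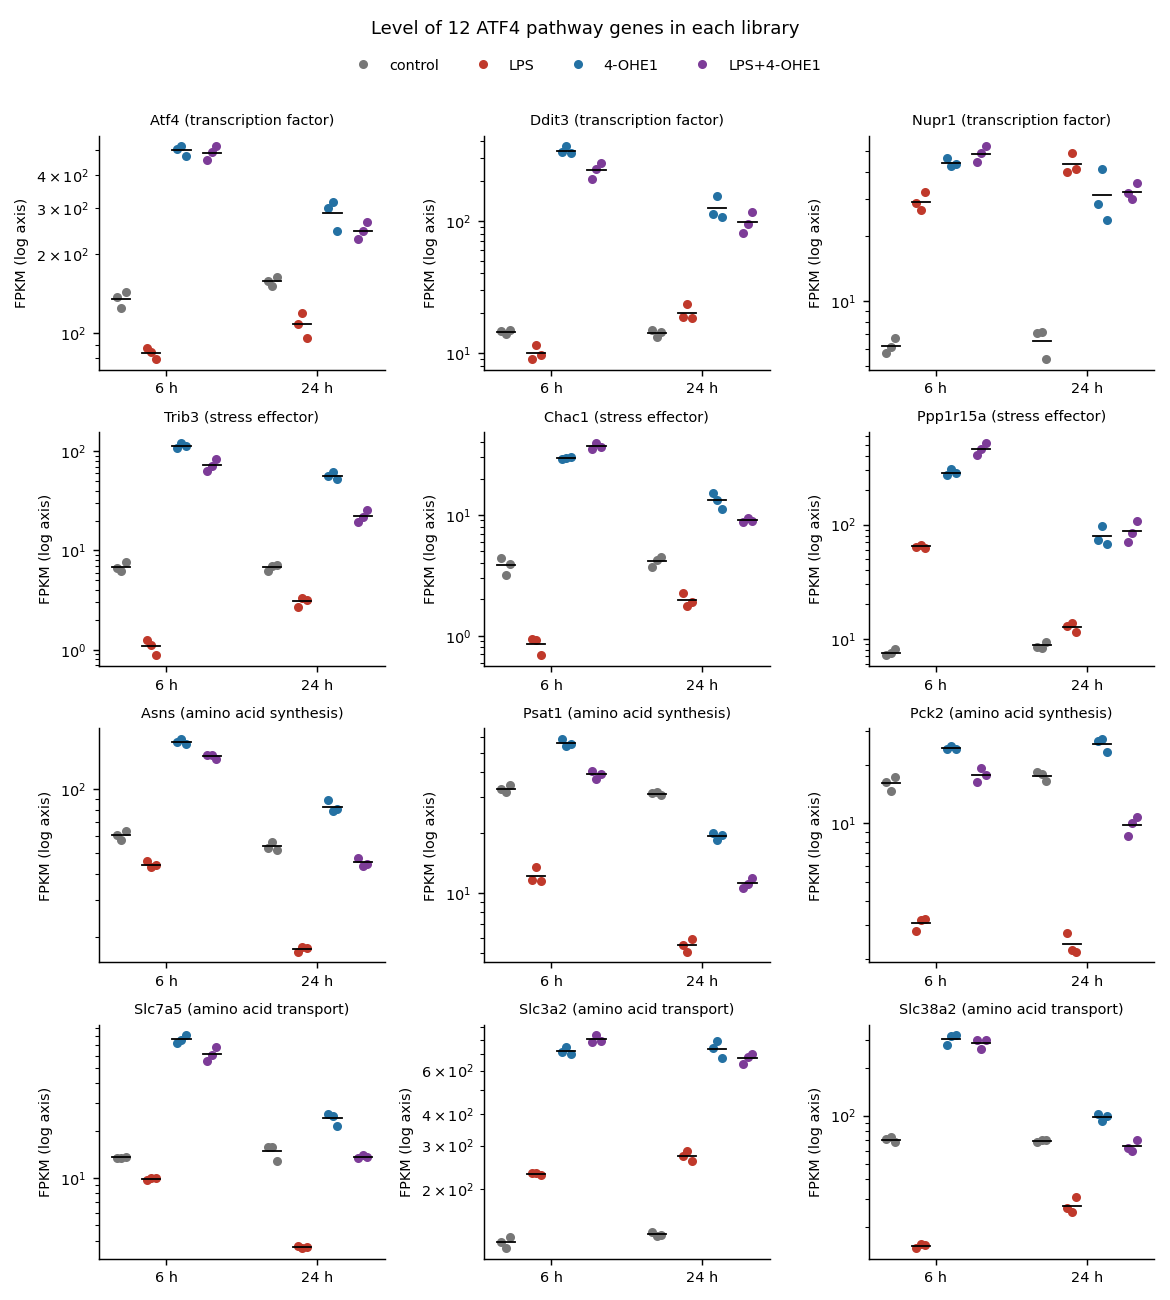
Level of 12 genes in every library, in FPKM on log axes, by time and treatment; points are single libraries and bars the means of 3. Atf4, Ddit3, Ppp1r15a and Trib3 stood far above control in all 6 h 4-OHE1 libraries, while Pck2, Psat1 and Slc38a2 stood below control in all LPS libraries.

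Among the transporters, Slc3a2, the heavy chain shared by several amino acid exchangers, was the most abundant gene of the list once 4-OHE1 was given. It read 122.9, 116 and 129 FPKM in 6 h control and 711.2, 748.4 and 700.0 FPKM with 4-OHE1, a rise of 2.55 ± 0.05 (limma, adjusted p = 4.6e-12). Its leucine-carrying partner Slc7a5 (LAT1) rose by 2.45 ± 0.07, from 13.4, 13.5 and 13.7 FPKM to 72, 75.7 and 80.8 FPKM. No library of one group came near the other for either gene. Slc1a4, a carrier of alanine, serine and cysteine, rose by 2.67 ± 0.10, and Slc38a2 (SNAT2), which imports neutral amino acids with sodium, by 2.10 ± 0.07. The arginine and lysine importer Slc7a1 rose by 1.17 ± 0.05 and the glutamine carrier Slc1a5 by 0.72 ± 0.10.

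The synthesis genes rose less. Asns, asparagine synthetase, read 60.6, 57.7 and 63.6 FPKM in control and 167.4, 172.3 and 163 FPKM with 4-OHE1, a rise of 1.46 ± 0.05 (limma, adjusted p = 3.1e-10) with no overlap. The mitochondrial folate enzyme gene Mthfd2 rose by 1.33 ± 0.06, Gpt2, which links alanine and glutamate, by 1.13 ± 0.09, and Psph, the last enzyme of serine synthesis, by 1.02 ± 0.15. Psat1 and Phgdh, the earlier enzymes of serine synthesis, rose by 0.75 ± 0.07 and 0.50 ± 0.10. Shmt2, which moves a carbon from serine to folate in mitochondria, rose by 0.66 ± 0.08 and Pck2, the mitochondrial PEP carboxykinase, by 0.59 ± 0.08. Shmt2 overlaps the opposite-strand gene Ndufa4l2 by 34 bases and Ppp1r15a overlaps Tulp2 by 11. The tRNA exporter gene Xpot rose by 0.29 ± 0.07.

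LPS alone at 6 h lowered much of the list as deposited, but most genes of the whole table were lower too. On the deposited values 24 of 30 genes were lower and 4 higher, against 68.1% lower and 16.1% higher of all genes tested (84.3% either way); after scaling 14 were lower and 8 higher. The 14 lower genes were lower on both scales, where 34.6% of all genes were, and the median of the list was -0.75 as deposited and -0.08 after scaling. The median of all genes lay at -0.61 and 0.02 on the same scales. Atf4 read 87.5, 84.2 and 79.5 FPKM with LPS, below its control libraries, a difference of -0.68 ± 0.07 that became 0.01 after scaling. Ddit3, Eif4ebp1, Asns, Phgdh, Psph, Mthfd2 and Slc7a5 likewise lay below control as deposited (differences of -0.57 to -0.26, Eif4ebp1 not past the threshold) and at 0.09 to 0.44 after scaling. Eif4ebp1 passed as lower without control replicate 2 or LPS replicate 1 (adjusted p = 0.00581 and 0.0281).

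The genes lower on both scales included effectors, synthesis genes and transporters. Trib3 read 1.26, 1.11 and 0.878 FPKM with LPS, below every control library, a fall of 2.23 ± 0.12 on the log2 scale (limma, adjusted p = 2.3e-09). Pck2 fell by 2.22 ± 0.08, from 16.3, 14.7 and 17.4 FPKM to 2.80, 3.19 and 3.22 FPKM. Slc38a2 fell by 2.17 ± 0.07, from 71.2, 73 and 67.9 FPKM to 14.7, 15.6 and 15.5 FPKM. All 3 genes had LPS libraries well below every control library. Slc1a5, Sesn2, Aldh18a1 (the first enzyme of proline synthesis), Chac1, Cebpg, Psat1, Xpot, Slc1a4, Atf5, Gpt2 and Shmt2 also fell, by values between 1.78 and 0.95.

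A few genes rose with LPS at 6 h on both scales, namely Ppp1r15a, Cebpb, Nupr1 and Slc3a2. Ppp1r15a read 64.1, 66.6 and 62.8 FPKM with LPS, a rise of 3.01 ± 0.08 (limma, adjusted p = 9.4e-12). Cebpb went from 42.6, 38 and 61.7 FPKM to 370.6, 359.7 and 334.2 FPKM, a rise of 2.92 ± 0.17, and its LPS libraries stood above those of any other 6 h group. Nupr1 rose by 2.15 ± 0.09 and Slc3a2 by 0.91 ± 0.05. These 4 genes had thus risen with either agent alone.

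When both agents were given for 6 h, nearly the whole list stood above LPS alone: 29 of 30 genes were higher and 1 lower, against 42.7% higher and 25.3% lower of all genes (68% either way, and 31.9% higher on both scales), with a median of 1.78 against 0.18. Without Cth 28 of 29 were higher. The same 30 genes were called after scaling and without replicate 3 of LPS+4-OHE1. Trib3 rose by 5.53 ± 0.12, to 63.5, 71 and 83.4 FPKM, Sesn2 by 5.17 ± 0.14, Chac1 by 4.80 ± 0.11 and Slc38a2 by 4.19 ± 0.07 (limma, adjusted p of 3.4e-12, 1.9e-11, 6.2e-12 and 8.3e-13). The gene that was lower was Cebpb, which read 178.3, 216.5 and 144.1 FPKM with both agents, all below the LPS libraries, a fall of 1.00 ± 0.17 (adjusted p = 0.00019). Against 4-OHE1 alone, LPS+4-OHE1 had 15 lower and 3 higher genes of 30 (50.2% and 10.1% of all genes, 60.4% either way), but 6 lower and 11 higher after scaling. Without replicate 3 these counts were 17 lower and 4 higher. Lower on both scales, as were 18.2% of all genes, were Atf5, Cebpg, Trib3, Psat1, Slc1a4 and Xpot, with differences from -0.86 to -0.52. Ppp1r15a, at 407.8, 460.2 and 522.3 FPKM, stood above 4-OHE1 alone by 0.69 ± 0.08 (adjusted p = 3.3e-05), and Chac1 and Slc3a2 passed by 0.31 ± 0.11 and 0.16 ± 0.05. Chac1 lost the call without any 1 4-OHE1 library or LPS+4-OHE1 replicate 2 (adjusted p up to 0.101), and Slc3a2 without 4-OHE1 replicate 1 or 3 or LPS+4-OHE1 replicate 2 (up to 0.0745).

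The interaction at 6 h asks whether 4-OHE1 changed a gene by a different amount in the presence of LPS. It was positive in 21 of 30 genes and negative in 4 (45.5% and 15.2% of all genes, 60.7% either way), and positive in 13 and negative in 7 after scaling. It was positive on both scales in 13 and negative in 4, against 25% and 15.1% of all genes. Without replicate 3 the counts were 19 and 4. Slc38a2 (2.09 ± 0.10), Chac1 (1.99 ± 0.15), Sesn2 (1.89 ± 0.20), Pck2 (1.76 ± 0.12), Trib3 (1.57 ± 0.16) and Slc1a5 (1.53 ± 0.14) had the largest positive values, all past the threshold on both scales, and all 6 were genes that LPS alone had lowered. The negative values were those of Cebpb (-2.57 ± 0.24), Ppp1r15a (-2.32 ± 0.12), Nupr1 (-2.01 ± 0.12) and Slc3a2 (-0.75 ± 0.07), the 4 genes that each agent alone had raised. Each interaction uses the LPS and control libraries of the single-agent comparisons, so these orders are not independent of one another.

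**Figure D2:**
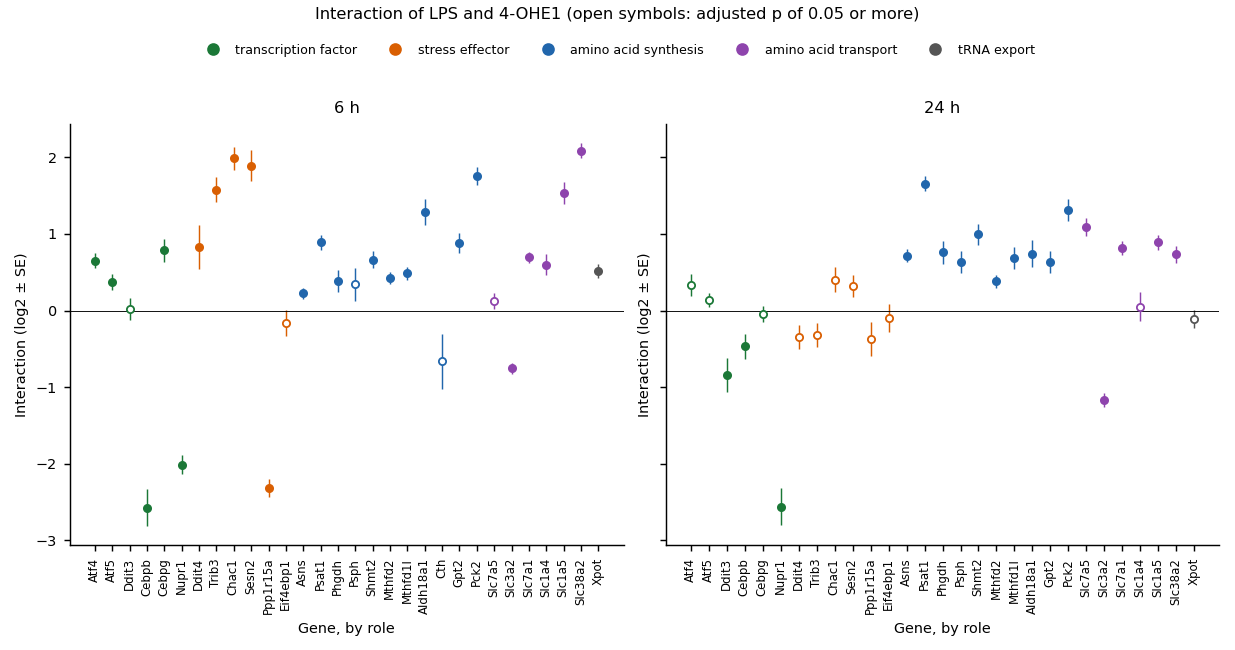
Interaction of LPS and 4-OHE1 for each tested gene at 6 h (left) and 24 h (right), in log2 units with the standard error, coloured by role; open symbols did not pass an adjusted p of 0.05. At 24 h all 10 amino acid synthesis genes lay above 0 and none of the 6 stress effectors passed.

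By 24 h the effect of 4-OHE1 was still present in all effectors and in part of the synthesis genes. Of 29 genes tested, 21 were higher than control and 1 lower (29.9% and 23.1% of all genes, 53% either way), or 19 and 3 after scaling, with a median of 0.62 against 0.05. All 6 effectors stayed higher (median 1.61), as did 5 of 6 transcription factors (median 0.80). Of 6 transporters 5 were higher (median 0.59), and 4 were higher and 1 lower after scaling. Of the 10 synthesis genes 5 were higher and 1 lower, or 4 and 2 after scaling, with a median of 0.21. Ppp1r15a read 72.9, 98.1 and 67.2 FPKM against 8.53, 8.39 and 9.39 FPKM in 24 h control, a rise of 3.09 ± 0.16 (limma, adjusted p = 1.6e-08). Ddit3 rose by 3.08 ± 0.15, to 112.1, 155.3 and 106.9 FPKM, and Trib3 by 2.98 ± 0.11, to 55.8, 61.9 and 52.3 FPKM. All 3 remained apart from their controls in every library.

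Slc3a2 read 742, 789.2 and 671.9 FPKM with 4-OHE1 at 24 h, all above control, a rise of 2.47 ± 0.06. Atf4 rose by 0.86 ± 0.10, to 299.5, 317.6 and 244.8 FPKM. Among the synthesis genes Asns, Gpt2, Psph and Pck2 rose by 0.62, 0.62, 0.58 and 0.53. Aldh18a1 passed as deposited (0.33 ± 0.12) but not after scaling, nor when any of 8 single libraries was left out (adjusted p up to 0.132). Psat1, at 19.9, 18.3 and 19.4 FPKM against 31.4, 31.7 and 30.6 FPKM in control, was lower by 0.69 ± 0.07 (adjusted p = 2.9e-06) with no overlap, having been higher than control at 6 h. Phgdh (-0.15 ± 0.11), Shmt2 (-0.13 ± 0.10), Mthfd2 (0.09 ± 0.06), Mthfd1l (-0.21 ± 0.10), Slc7a1 (-0.10 ± 0.06), Cebpg (0.02 ± 0.07) and Xpot (0.19 ± 0.08) did not pass, and after scaling Mthfd1l (-0.29) and Slc7a1 (-0.18) were lower. Mthfd1l was also lower without 24 h LPS replicate 3 (adjusted p = 0.012), and Xpot passed without control replicate 1, LPS replicate 3 or 4-OHE1 replicate 2 (0.0374, 0.0483 and 0.0347).

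**Figure D3:**
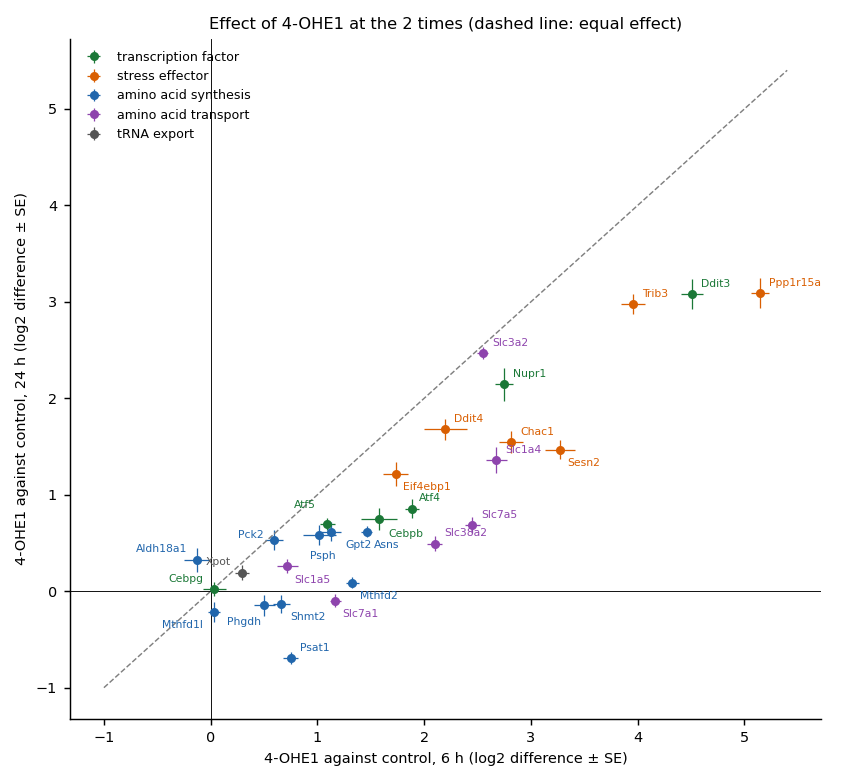
Effect of 4-OHE1 against control at 6 h (x axis) and 24 h (y axis), as log2 differences with standard errors, for the 29 genes tested at both times, coloured by role. Most genes lie below the dashed line of equal effect, Slc3a2 lies near it, and Psat1 lies at 0.75 and -0.69.

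The difference between times was tested in a fit of all 24 libraries over 11220 genes. The 4-OHE1 effect at 24 h minus that at 6 h was negative in 22 of 30 genes and positive in 1. Of all genes 16.6% were negative and 37% positive (53.6% either way). After scaling the difference was negative in 27 genes of the list and positive in 0, for which the shares as deposited are no background. On both scales the difference was negative in 22 genes and positive in 0, against 16.6% and 21.7% of all genes. Its sign is not the size of an effect, since a fall at 6 h that weakened by 24 h also gives a positive value. Without Cth, which entered this fit through the 6 h libraries given 4-OHE1, the difference was negative in 21 of 29. With Cth (-1.69) set aside, the drop was largest for Ppp1r15a (-2.06 ± 0.19), Sesn2 (-1.80 ± 0.18), Slc7a5 (-1.77 ± 0.11), Slc38a2 (-1.61 ± 0.11), Psat1 (-1.44 ± 0.09) and Ddit3 (-1.43 ± 0.20). Slc7a5 went from 72, 75.7 and 80.8 FPKM at 6 h to 25.5, 24.9 and 21.6 FPKM at 24 h, beside control values of 12.9 to 15.7 FPKM at both times. The drop did not pass for Slc3a2 (-0.08 ± 0.08), Pck2 (-0.06 ± 0.13), Cebpg (-0.01 ± 0.13), Xpot (-0.10 ± 0.10), Ddit4 (-0.52 ± 0.24), Psph (-0.44 ± 0.20) or Mthfd1l (-0.25 ± 0.12). After scaling 5 of these 7 did pass as negative, namely Slc3a2 (-0.33), Xpot (-0.34), Ddit4 (-0.74), Psph (-0.68) and Mthfd1l (-0.49). Single libraries decided some of these: Ddit4 passed without 6 h LPS replicate 1 or LPS+4-OHE1 replicate 1 (adjusted p = 0.0321 and 0.0437), Psph without 6 h control replicate 3 or LPS replicate 2 (0.0356 and 0.0253) and Mthfd1l without 24 h LPS replicate 3 (0.00998).

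LPS at 24 h lowered all genes tested of the synthesis and transport roles except Slc3a2. All 10 synthesis genes and 5 of 6 transporters were lower than control on both scales, and the median of the synthesis genes was -1.83 (-1.49 after scaling). Over the list 22 of 29 genes were lower and 6 higher, against 53.5% lower and 19.9% higher of all genes (73.4% either way), and 21 and 6 after scaling, where 33.3% of all genes were lower on both scales. Pck2 read 2.73, 2.23 and 2.18 FPKM against 18.5, 18 and 16.5 FPKM in control, a fall of 2.66 ± 0.10 (limma, adjusted p = 1.1e-10). Psat1 fell by 2.41 ± 0.07, to 5.49, 5.10 and 5.88 FPKM, and Phgdh by 2.16 ± 0.11, from 7.31, 8.49 and 8.70 FPKM to 1.46, 1.45 and 1.41 FPKM. All LPS libraries were below all control libraries for these genes of serine and phosphoenolpyruvate metabolism. Aldh18a1 (-1.97), Shmt2 (-1.93), Slc7a5 (-1.87), Psph (-1.74), Asns (-1.58), Slc1a4 (-1.55) and Gpt2 (-1.35) followed. In the same LPS libraries the megakaryocyte list summed to 933.1 to 1264 FPKM, almost all of it Pf4, against 34.5 to 43.4 FPKM in control, with Itga2b and Gp9 below 1 FPKM. The neutrophil list, mainly S100a8, summed to 47.2 to 64.1 FPKM against 2.74 to 3.10 FPKM, and the dendritic cell list, mainly Ccr7 and Xcr1 with Flt3 and Zbtb46 under 1 FPKM, to 5.29 to 6.46 FPKM against 0.034 to 0.214 FPKM. The mast cell list, mainly Kit with Mcpt4 at 0 in every library, was at 0.109 to 0.199 against 1.75 to 2.05 FPKM. The macrophage list was at 13230 to 14820 FPKM with LPS against 6445 to 7109 FPKM in control. Lyz2 weighed most in this sum (2876 to 11370 FPKM over all libraries), so it says little of the other macrophage markers. The part of these marker genes in the falls described here was not tested.

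Effectors and regulators were mixed. The 6 effectors split into 3 lower (Trib3 -1.03 ± 0.11, Chac1 -0.92 ± 0.11, Sesn2 -0.72 ± 0.10), 2 higher (Ddit4 0.82 ± 0.11, Ppp1r15a 0.51 ± 0.16) and Eif4ebp1, at -0.26 ± 0.13, not past the threshold. Eif4ebp1 passed as lower without LPS replicate 2 or 4-OHE1 replicate 2 (adjusted p = 0.0329 and 0.0433). Nupr1 rose by 2.64 ± 0.17, from 7.12, 7.14 and 5.37 FPKM to 40.1, 48.8 and 41.1 FPKM. The 24 h 4-OHE1 libraries read 28.4, 41.45 and 23.9 FPKM (mean 31.2 ± 9.12 FPKM, SD, n = 3). Both groups thus overlapped, and LPS was not tested against 4-OHE1. Cebpb rose by 1.94 ± 0.11, Slc3a2 by 1.05 ± 0.06 and Ddit3 by 0.49 ± 0.15, the last losing its call without LPS replicate 2 (0.38, adjusted p = 0.0554). Atf4 was lower by 0.55 ± 0.10 as deposited and did not pass after scaling (-0.19).

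By the test of the difference, the LPS effect at 24 h minus that at 6 h was negative in 9 of 11 synthesis genes and positive in 0 (negative in 10 after scaling). Of 6 effectors it was positive in 4 and negative in 1, Ppp1r15a (-2.50 ± 0.19), which had the largest difference of the list. Of 6 transporters it was positive in 2 and negative in 2 (1 and 4 after scaling), and no test compared the roles. Over all genes tested 41.7% moved up and 16.9% down (58.6% either way), and over the list 11 and 13 (8 and 16 after scaling). Phgdh moved by -1.60 ± 0.14, Slc7a5 by -1.44 ± 0.11, Psph by -1.16 ± 0.20 and Asns by -1.13 ± 0.07, whereas Ddit4 moved by 1.37 ± 0.24, Trib3 by 1.20 ± 0.16 and Sesn2 by 1.04 ± 0.18. Gpt2 and Mthfd2, at -0.33 ± 0.13 and -0.21 ± 0.08, lost the call when any of several single libraries was left out (adjusted p up to 0.1375 and 0.0771).

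In cells given LPS for 24 h, adding 4-OHE1 raised every gene tested of the synthesis and transport roles. With the pair of agents, all 10 synthesis genes, all 6 transporters and all 6 effectors exceeded their LPS levels on both scales. Of the list 25 of 29 genes were higher and 0 lower, against 39.5% of all genes higher and 14.9% lower (54.4% either way, and 23.1% higher on both scales). After scaling 25 were higher and 2, Cebpg and Nupr1, lower. Pck2 rose by 1.84 ± 0.10, to 8.66, 10.1 and 10.8 FPKM, Slc7a5 by 1.77 ± 0.08, to 13.5, 13.9 and 13.6 FPKM, and Asns by 1.33 ± 0.06, to 47.6, 43.5 and 44.6 FPKM (limma, adjusted p of 1.5e-08, 5.2e-09 and 2.8e-09). None of these libraries overlapped the LPS group. In the same comparison the megakaryocyte list was at 96.12 to 125.6 FPKM with both agents against 933.1 to 1264 FPKM with LPS. The macrophage list, in which Lyz2 weighed most, was at 6021 to 6530 against 13230 to 14820 FPKM. The dendritic cell list was at 1.30 to 2.10 against 5.29 to 6.46 FPKM. The neutrophil list was at 82.15 to 112.1 against 47.2 to 64.1 FPKM, and the part of these markers in the rises was not tested. Ppp1r15a and Trib3 rose by 2.71 ± 0.16 and 2.66 ± 0.11, and Ddit3 by 2.24 ± 0.15. Cebpb (0.28 ± 0.11), Nupr1 (-0.41 ± 0.17), Cebpg (-0.03 ± 0.07) and Xpot (0.08 ± 0.08) did not pass. Cebpb lay at the threshold and passed without LPS replicate 1 (0.39, adjusted p = 0.0112) or any of 3 other libraries, and Nupr1 passed as lower without control replicate 3, 4-OHE1 replicate 2 or 4-OHE1 replicate 3 (adjusted p of 0.0111 to 0.0495).

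Set against 4-OHE1 alone at 24 h, LPS+4-OHE1 left 22 of 29 genes lower and 2 higher (44.3% and 12% of all genes, 56.3% either way, and 21.5% lower on both scales), or 16 and 2 after scaling. All 10 synthesis genes were lower as deposited, and 9 of them on both scales, with Phgdh (-1.40 ± 0.11), Pck2 (-1.35 ± 0.10), Aldh18a1 (-1.23 ± 0.12) and Psph (-1.10 ± 0.10) foremost. Slc1a4 read 1.57, 1.98 and 1.99 FPKM against 5.86, 6.82 and 5.65 FPKM with 4-OHE1 alone, a difference of -1.50 ± 0.13. Trib3 was the effector with the clearest difference, at 19.3, 21.6 and 25.3 FPKM against 55.8, 61.9 and 52.3 FPKM (-1.35 ± 0.11, adjusted p = 5e-07). Chac1, Sesn2 and Eif4ebp1 were lower as deposited and did not pass after scaling, and Eif4ebp1 lost its call when any of 5 single libraries was left out (adjusted p up to 0.135). Atf4, Ddit3 and Slc3a2 did not pass, but each passed as lower without 4-OHE1 replicate 3 (adjusted p of 0.00947, 0.0398 and 0.0234). Cebpb (1.47 ± 0.11) and Ddit4 (0.48 ± 0.11) were higher.

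The interaction at 24 h was positive throughout the synthesis genes. Over the list it was positive in 14 of 29 genes and negative in 4 (27.6% and 15.7% of all genes, 43.3% either way, and 21.5% positive on both scales), and in 14 and 6 after scaling. All 10 synthesis genes were positive on both scales, from 0.38 ± 0.09 for Mthfd2 to 1.66 ± 0.09 for Psat1, as were Slc7a5 (1.09 ± 0.12), Slc1a5, Slc7a1 and Slc38a2. None of the 6 effectors passed, with values from -0.38 to 0.40, and after scaling Ddit4 (-0.44) and Trib3 (-0.41) were negative. Leaving out single libraries brought Chac1, Sesn2, Ddit4, Trib3 or Ppp1r15a past the threshold in some fits (adjusted p down to 0.0148, for Sesn2 without LPS replicate 1), so an interaction in the effectors was not detected with all libraries rather than shown to be absent. Nupr1 (-2.56 ± 0.24), Slc3a2 (-1.17 ± 0.09), Ddit3 (-0.84 ± 0.22) and Cebpb (-0.47 ± 0.16) were negative, Cebpb losing its call when any of 6 single libraries was left out (adjusted p up to 0.0749).

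**Figure D4:**
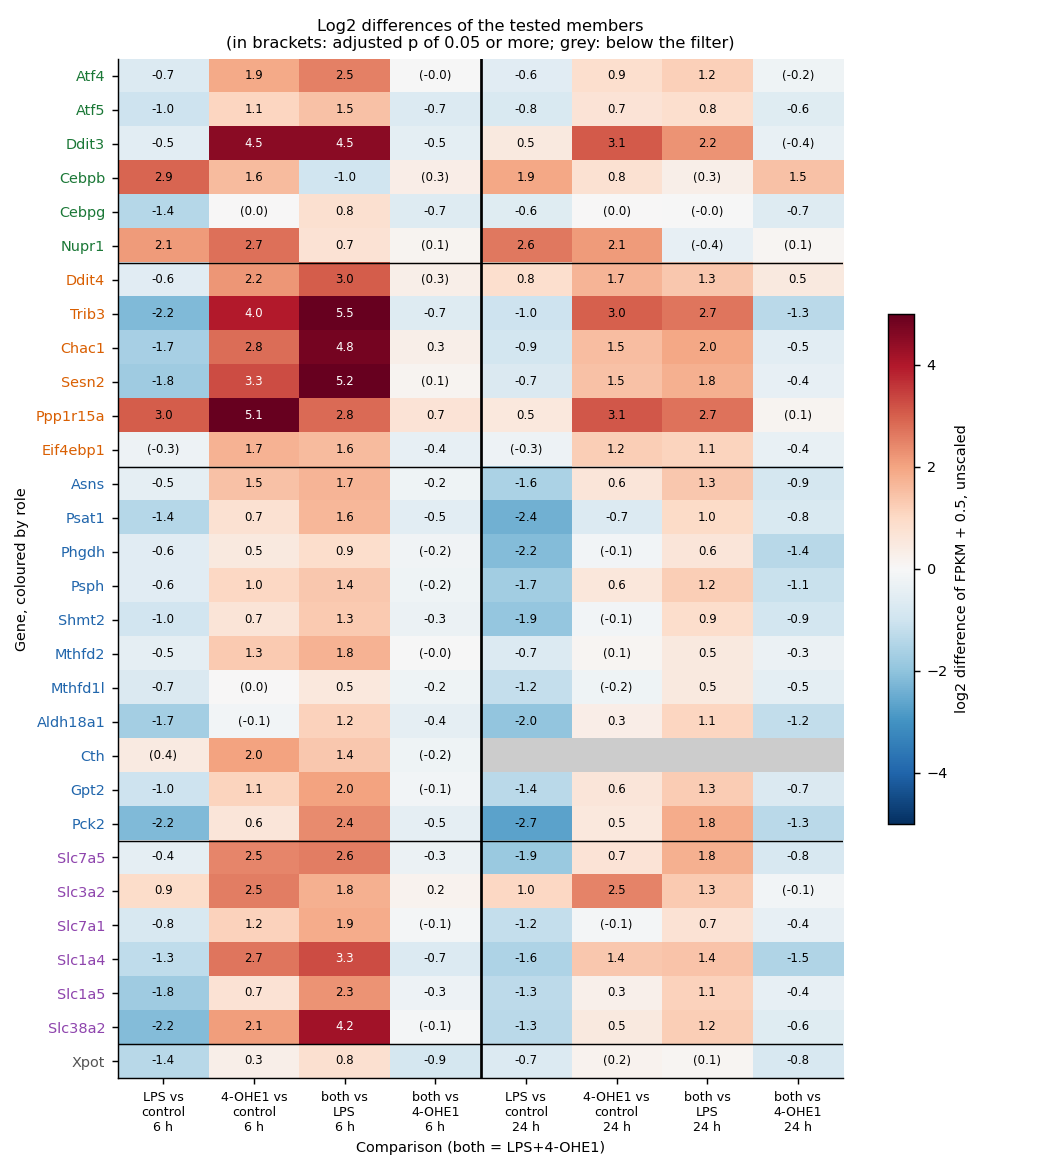
Log2 differences of the 30 tested genes in the 8 pairwise comparisons, ordered and coloured by role; brackets mark an adjusted p of 0.05 or more and grey cells were below the filter. The 24 h LPS column is blue for all 10 tested synthesis genes, from -2.66 for Pck2 to -0.66 for Mthfd2, while the 24 h 4-OHE1 column is deepest red for Ppp1r15a, Ddit3 and Trib3.

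Averaged over the genes of a role in each library, effectors stood above synthesis genes in the groups given 4-OHE1. The means of the control libraries lay within -0.104 to 0.112 for every role. The synthesis means cover 11 genes at 6 h and 10 at 24 h. Those at 6 h include Cth, which passed the filter only through the groups given 4-OHE1, and those at 24 h do not. In the 6 h 4-OHE1 libraries the mean difference from control was 3.13 to 3.27 for the effectors, 1.90 to 1.97 for the transporters and 0.79 to 0.92 for the synthesis genes. In the 6 h LPS+4-OHE1 libraries it was 3.05 to 3.38, 1.66 to 1.80 and 0.52 to 0.71. At 24 h, 4-OHE1 alone gave 1.82 to 2.16, 0.80 to 0.90 and 0.10 to 0.21. In the 24 h LPS+4-OHE1 libraries the effectors stood at 1.53 to 1.79 above control, and the synthesis genes below control at -0.82 to -0.69 (-0.66 to -0.55 after scaling). There the transporters were at 0.18 to 0.26 by the mean, but at -0.17 to -0.08 by the median over genes (-0.003 to 0.05 after scaling). Slc3a2, at a mean of 671.9 FPKM against 131.7 FPKM in 24 h control, raised the transporter mean. The other transporters read below their 24 h control means. With LPS alone at 6 h the effectors were at -0.76 to -0.41, the transporters at -0.97 to -0.89 and the synthesis genes at -0.91 to -0.86, and by the median over genes the effectors (-1.34 to -0.84) overlapped the synthesis genes (-0.87 to -0.71). With LPS alone at 24 h the effectors were at -0.37 to -0.18 and the synthesis genes at -1.86 to -1.69. LPS+4-OHE1 was not tested against control, and these means describe the members without a test.

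**Figure D5:**
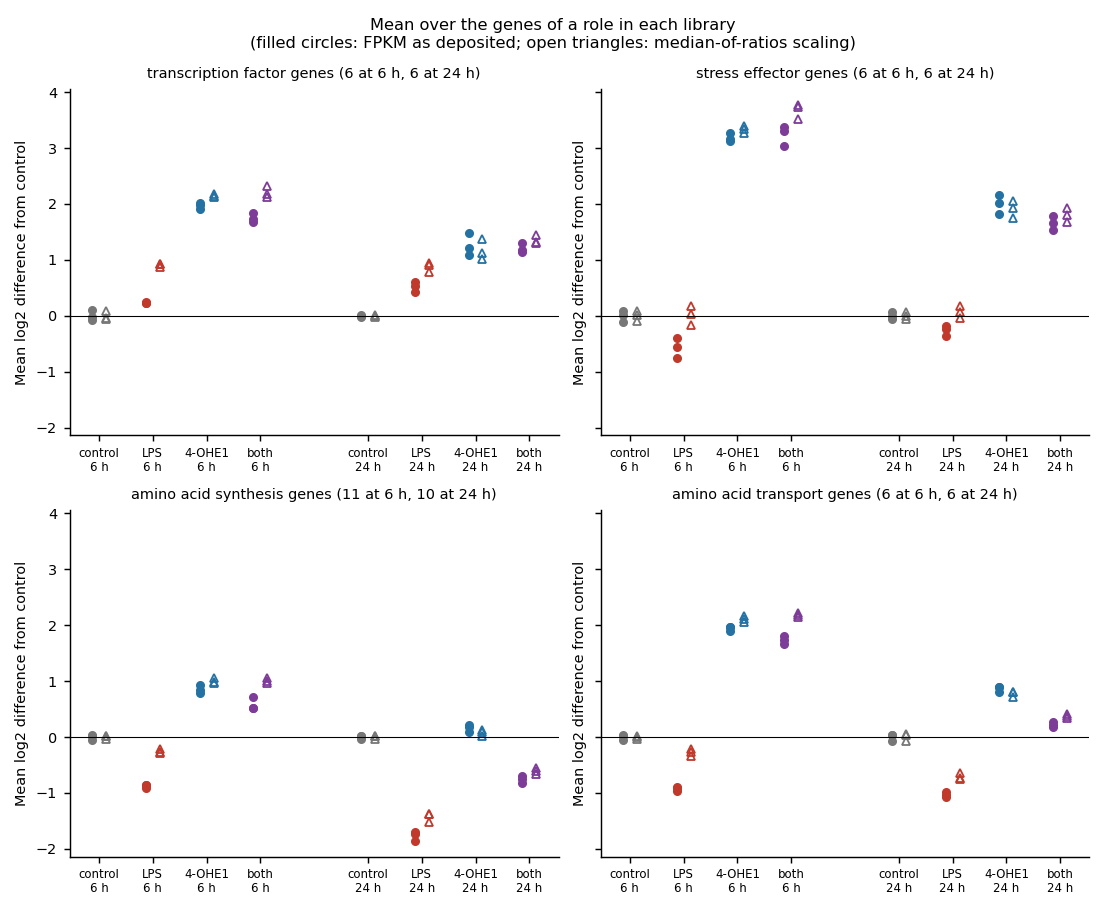
Mean log2 difference from the control mean over the genes of each role, per library, for the 8 groups; filled circles are deposited FPKM and open triangles values after median-of-ratios scaling. In 24 h LPS+4-OHE1 libraries the effectors stand at 1.53 to 1.79 and the synthesis genes at -0.82 to -0.69. The synthesis means include Cth at 6 h only.

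Upstream genes of the pathway moved in both directions. Here and in the next 2 paragraphs the shares of all genes are those on the values as deposited, unless both scales are named. They are no background for the counts after scaling. Of 18 genes for eIF2 kinases and eIF2 control, 3 rose and 5 fell with 4-OHE1 at 6 h (5 and 4 after scaling), with a median of -0.05, against 20.9% higher and 44% lower of all genes. Impact, which encodes an inhibitor of the kinase activator GCN1, rose by 3.02 ± 0.09, from 12.8 ± 1.23 to 108.0 ± 10.1 FPKM (SD, n = 3), and Eif2s2, a subunit of eIF2, by 0.82 ± 0.09. The interferon-induced kinase gene Eif2ak2 (PKR) fell by 1.21 ± 0.13 with 4-OHE1 and rose by 2.09 ± 0.13 with LPS at 6 h. The kinase genes Eif2ak4 (GCN2) and Eif2ak3 (PERK) fell by 2.003 ± 0.10 and 1.83 ± 0.11 with LPS, where 3 genes of this list rose and 13 fell as deposited but 11 rose and 3 fell after scaling, against 16.1% higher and 68.1% lower of all genes as deposited. At 24 h, 8 rose and 2 fell with 4-OHE1 (7 and 3 after scaling, against 29.9% and 23.1% of all genes). With LPS at 24 h 3 rose and 5 fell, against 19.9% and 53.5% (11 and 3 after scaling). The counts of this list under LPS thus turned with the scaling, and those as deposited at 6 h lay near the shares of all genes. On both scales 3 rose and 3 fell with LPS at each time. For all genes the shares on both scales were 16.1% and 34.6% at 6 h and 19.9% and 33.3% at 24 h. LPS+4-OHE1 at 24 h had 8 higher and 3 lower than LPS (6 and 4 after scaling, against 39.5% and 14.9%).

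Of the 20 cytosolic aminoacyl-tRNA synthetase genes, whose products charge tRNAs, 11 rose and 4 fell with 4-OHE1 at 6 h (13 and 1 after scaling), against 20.9% and 44% of all genes. Aars, Nars, Rars and Eprs rose by 1.61 ± 0.06, 1.42 ± 0.05, 1.35 ± 0.05 and 1.29 ± 0.05. At 24 h, 16 rose and 2 fell with 4-OHE1 (13 and 3 after scaling, against 29.9% and 23.1% of all genes), led by Sars (0.89 ± 0.08) and Aars (0.85 ± 0.07). With LPS 3 rose and 16 fell at 6 h, against 16.1% and 68.1% (7 and 8 after scaling). At 24 h 2 rose and 16 fell, against 19.9% and 53.5% (4 and 8 after scaling). On both scales 3 rose and 8 fell at 6 h, against 16.1% and 34.6% of all genes. At 24 h 2 rose and 8 fell on both scales, against 19.9% and 33.3%. LPS+4-OHE1 had 15 higher and 2 lower than LPS at 6 h (13 and 3 after scaling, against 42.7% and 25.3%) and 15 and 0 at 24 h (8 and 2 after scaling, against 39.5% and 14.9%).

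Of 15 further ATF4 targets 13 were tested, and with 4-OHE1 11 rose and 0 fell at 6 h, against 20.9% and 44% of all genes. At 24 h 11 rose and 0 fell (10 and 1 after scaling, against 29.9% and 23.1%). Soat2 passed the 24 h filter only through the groups given 4-OHE1, so its place in the 24 h counts owes to the filter. It averaged 0.72 FPKM in 24 h control, 0.59 FPKM with LPS, 6.29 FPKM with 4-OHE1 and 2.72 FPKM with LPS+4-OHE1. Slc7a11, the cystine importer, rose by 4.95 ± 0.12 at 6 h, Gdf15, a stress-induced secreted factor, by 3.91 ± 0.09, Sqstm1, the autophagy receptor p62, by 3.35 ± 0.06 and Atf3, a stress-induced transcription factor, by 3.2 ± 0.08. LPS raised 8 of the 13 and lowered 4 at 6 h, against 16.1% and 68.1% of all genes (10 and 2 after scaling), led by Slc7a11 at 6.09 ± 0.12. At 24 h LPS raised 7 and lowered 3, against 19.9% and 53.5% (8 and 2 after scaling). On both scales LPS raised 8 and lowered 2 at 6 h, against 16.1% and 34.6% of all genes. At 24 h LPS raised 7 and lowered 2 on both scales, against 19.9% and 33.3%. For these targets the interaction at 6 h was negative in 10 genes and positive in 1 (10 and 0 after scaling). Of all genes 15.2% were negative and 45.5% positive as deposited. Slc7a11 had an interaction of -6.22 ± 0.17. Slc7a11 and Sqstm1 are also NRF2 targets, and the list was chosen with earlier results of these data known.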

How the data were processed

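RNA-seq was made from 24 macrophage libraries, 3 for each of 8 groups, with groups taken from the sample labels. FPKM values per gene were made by the authors, per the file headers, in 1 table for each time; STAR, HOMER, DESeq2, edgeR and the build mm10 are named in the submitters' processing notes, without a role for each tool. The authors' deposited tables also list, for the single agents, the log2 fold change and its adjusted p-value against control, used here only as an alternative. The FPKM values were whole reads for 99.99 to 100% of values within 0.1 read, given gene length and depth, and the reads recovered in this way entered a voom fit as an alternative. Depth was taken from the headers where they give it and estimated from the steps between low values for the LPS+4-OHE1 libraries.

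Values were tested as log2(FPKM + 0.5) with limma 3.58.1 in R 4.3.3 (empirical Bayes with trend), after dropping genes that did not reach 1 FPKM in 3 or more libraries. All 4 groups of a time entered 1 fit, and all 24 libraries entered the fit for differences between times; p-values were adjusted over all genes tested. A fold change on this scale understates the change of low genes. Tables and plots were made with Python 3.11.15, pandas 2.3.3, numpy 2.4.6 and matplotlib 3.10.9. The fit was tested on simulated data in which few genes changed and the whole table did not shift. That test does not cover the shift seen here with LPS. Replicates differed by more than counting error (chi-square per degree of freedom 1.44 to 15.8). Every member was described by role; from each other list at most 4 called genes with the largest difference were named. The members and lists were chosen with earlier results of these data known. Alternatives were other pseudocounts and filters, median-of-ratios scaling, a robust fit, a replicate block, voom, the authors' deposited comparisons and leaving out each library. Transcripts differed between the tables of both times for 1114 genes, of which Vldlr is the only member.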

Additional observations from a re-analysis of the deposited data

Results flagged for a closer look

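The effect of 4-OHE1 differed between 24 h and 6 h in 23 genes, by limma's test of the difference itself over 24 libraries (adjusted p under 0.05). The differences of log2 effects, 24 h minus 6 h, were as follows. Among regulators they were -1.03 for Atf4, -0.39 for Atf5, -1.43 for Ddit3, -0.82 for Cebpb and -0.60 for Nupr1. Among effectors they were -0.98 for Trib3, -1.26 for Chac1, -1.80 for Sesn2, -2.06 for Ppp1r15a and -0.52 for Eif4ebp1. Among synthesis genes they were -0.84 for Asns, -1.44 for Psat1, -0.65 for Phgdh, -0.79 for Shmt2, -1.24 for Mthfd2, -1.69 for Cth, -0.51 for Gpt2 and 0.46 for Aldh18a1, the last not past the threshold after scaling. Cth passed the filter only through the 6 h libraries given 4-OHE1 (80 reads in the 4-OHE1 group against 2 in control, and 17 against 6 at 24 h), so its difference owes its entry to the filter. Among transporters they were -1.77 for Slc7a5, -1.27 for Slc7a1, -1.31 for Slc1a4, -0.46 for Slc1a5 and -1.61 for Slc38a2. Eif4ebp1 and Aldh18a1 lost the call without any of several single libraries (adjusted p up to 0.0813 and 0.0857), and Nupr1 without 24 h 4-OHE1 replicate 3 (0.0619).

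The effect of LPS differed between the times in 24 genes by the same test. Among regulators the differences were 0.28 for Atf5, 1.00 for Ddit3, -0.98 for Cebpb, 0.82 for Cebpg and 0.50 for Nupr1. Among effectors they were 1.37 for Ddit4, 1.20 for Trib3, 0.76 for Chac1, 1.04 for Sesn2 and -2.50 for Ppp1r15a. Among synthesis genes they were -1.13 for Asns, -0.998 for Psat1, -1.60 for Phgdh, -1.16 for Psph, -0.97 for Shmt2, -0.21 for Mthfd2, -0.47 for Mthfd1l, -0.33 for Gpt2 and -0.44 for Pck2. Among transporters they were -1.44 for Slc7a5, -0.42 for Slc7a1, 0.48 for Slc1a5 and 0.83 for Slc38a2, and Xpot was at 0.70. Those of Atf5, Nupr1 and Slc1a5 did not pass after scaling. Atf5 lost the call without 6 h control replicate 3 or 24 h LPS replicate 1 (adjusted p = 0.0503 and 0.0538), and Nupr1 without any of 6 single libraries (up to 0.131).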

How the results depend on the processing

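The number of members called in either direction moved by less than 1.5 times in each of the 12 comparisons, but its split did not hold. Under scaling the higher and lower genes went from 4 and 24 to 8 and 14 for LPS at 6 h (9 and 14 in the authors' deposited comparison), from 3 and 15 to 11 and 6 for LPS+4-OHE1 against 4-OHE1 at 6 h, from 21 and 4 to 13 and 7 for the 6 h interaction, from 21 and 1 to 19 and 3 for 4-OHE1 at 24 h (22 and 3 in the authors' deposited comparison), from 25 and 0 to 25 and 2 for LPS+4-OHE1 against LPS at 24 h and from 1 and 22 to 0 and 27 for the difference of the 4-OHE1 effect. For LPS+4-OHE1 against 4-OHE1 at 6 h the 3 higher genes became 1 without 6 h 4-OHE1 replicate 1 or 3 or LPS+4-OHE1 replicate 2. For 4-OHE1 at 24 h 2 were lower with voom or without 24 h LPS replicate 3. The authors' deposited comparisons were counted over all 34 members, also those too low to test here. Their 22 higher genes for 4-OHE1 at 24 h include Vldlr (1.44), which was not tested here. Their 9 for LPS at 6 h include Cth (3.43), which had 11 reads with LPS and 2 in control. For LPS+4-OHE1 against LPS at 24 h 1 was lower with the block, with voom or without control replicate 3 or 4-OHE1 replicate 2 or 3. For the difference of the 4-OHE1 effect 0 were higher without the filter or without any of 8 single libraries (control replicate 2 and all 4-OHE1 libraries at 6 h, control replicates 2 and 3 and 4-OHE1 replicates 1 and 2 at 24 h). Of 7931 values compared, 7678 kept their direction and side of the threshold, 136 lost the call, 88 gained it and 29 reversed. The reversals came with median-of-ratios scaling (21) and the authors' deposited comparisons (8). For LPS against control at 6 h scaling gave Atf4 0.0144, Ddit3 0.160, Eif4ebp1 0.437, Asns 0.241, Phgdh 0.0947, Psph 0.0943, Mthfd2 0.2405 and Slc7a5 0.239, and in the authors' deposited table the same genes, in that order, had 0.000884, 0.153, 0.425, 0.2285, 0.0835, 0.106, 0.2275 and 0.233. For LPS+4-OHE1 against 4-OHE1 at 6 h scaling gave Atf4 0.258, Asns 0.0617, Mthfd2 0.2645, Mthfd1l 0.0556, Slc7a1 0.188, Slc1a5 0.0343 and Slc38a2 0.203. For the 6 h interaction it gave Atf5 -0.0314, Ddit3 -0.364, Asns -0.179 and Slc7a5 -0.259, and for the difference of the LPS effect Atf5 -0.0443 and Slc3a2 -0.193. Scaling itself moved the median of all genes from -0.61 to 0.02 for LPS at 6 h; beyond that the cause was not tested. Leaving out 1 library reversed 0 values and changed the call of 40 pairs of gene and comparison. The counts then ranged from 27 to 29 (LPS, 6 h), 27 to 27 (4-OHE1, 6 h), 30 to 30 (LPS+4-OHE1 against LPS, 6 h), 15 to 21 (against 4-OHE1, 6 h), 22 to 25 (interaction, 6 h), 28 to 29, 21 to 24, 25 to 27, 23 to 27 and 17 to 20 in the same order at 24 h, 21 to 24 (difference of the 4-OHE1 effect) and 20 to 24 (of the LPS effect). Same-numbered libraries mostly did not deviate together (correlation -0.142 to 0.272 over 36 pairs, 2 above 0.1). Those 2 were 24 h LPS with 24 h 4-OHE1, for replicates 2 and 3 (0.272 and 0.27). Low correlations cannot exclude a pairing of small effect, and the main fit treats the libraries as unpaired. With the replicate number as a block, 23 genes were called for 4-OHE1 at 24 h against 22, adding Xpot (adjusted p = 0.0234), and 26 for LPS+4-OHE1 against LPS at 24 h against 25, adding Nupr1 (0.0397); the block changed no other call. Depth limits the genes near 1 FPKM, where 1 read in a 2 kb transcript is worth 0.0375 to 0.0615 FPKM.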
